A study of Mus musculus with 11 samples.

Results

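The proteasome is the protease that breaks down most short-lived and misfolded proteins in the cell. Its genes in the table were taken by symbol: every name that starts with Psma to Psmg followed by a digit, pseudogene names left out. The rule gave 50 of 32285 genes. They comprised 7 alpha and 7 beta subunits of the 20S core, 3 immunoproteasome subunits, 2 tissue-specific core subunits, 6 ATPases and 11 other subunits of the 19S regulatory particle, 7 assembly factors, 4 activators with 1 inhibitor, and 2 further names. Those last names were Psmc3ip, which encodes a recombination factor and no proteasome subunit, and Psme2b, a near-identical copy of Psme2. Both were counted and are described apart.

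The libraries came from pancreatic islets of mice aged 16 weeks that had been on a high-fat diet (HFD) for 4 weeks. The mice were either βZKO-Mip animals, described as lacking Zzef1 in β cells, or littermate controls, and each sample pooled at least 3 mice of 1 genotype. The islets received azoramide, a compound known to modulate the response to unfolded proteins in the endoplasmic reticulum, at 10 µM for 24 h, or its solvent DMSO for as long. There were 3 control DMSO, 3 control azoramide, 2 βZKO-Mip DMSO and 3 βZKO-Mip azoramide libraries. All 4 groups shared the diet and the age, and untreated islets were not among them. The questions were how the proteasome genes responded to azoramide in each genotype, and whether the deletion changed their level or that response.

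Library depth was 16832800 to 19501813 counts. Levels are in CPM, a gene's counts relative to the scaled total of its library. The deletion did not show clearly in the RNA. Zzef1 measured 97.2 ± 12.2 CPM in control DMSO (SD, n = 3) and 81.5 ± 2.93 in βZKO-Mip DMSO (n = 2). The log2 difference was -0.26 (SE 0.087, edgeR unadjusted p = 0.0093, adjusted p = 0.999). These libraries did not overlap, with 85.4 CPM the lowest in control and 83.5 CPM the highest in βZKO-Mip. With azoramide Zzef1 measured 66.6 ± 2.02 CPM in control and 72.8 ± 4.53 in βZKO-Mip libraries (n = 3 each), a log2 difference of 0.13 (edgeR adjusted p = 0.968). Azoramide against DMSO gave -0.55 in control islets (adjusted p = 3.46e-05) and -0.16 in βZKO-Mip libraries (adjusted p = 0.153). Which exons were deleted is not stated, and reads from other exons cannot check the label. The βZKO-Mip samples are called the libraries labelled knockout. The islet endocrine markers Ins1, Ins2, Gcg, Sst, Ppy and Iapp were abundant in every library and moved with treatment (values below). Library 3 of the azoramide group labelled knockout and control DMSO library 2 were known to stand apart, so the results are also given without both.

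The 26S proteasome consists of a barrel, the 20S core, closed at 1 or both ends by a 19S particle. Its outer alpha rings gate the barrel, and its inner beta rings carry the active sites on PSMB5, PSMB6 and PSMB7, which interferon can replace by PSMB8, PSMB9 and PSMB10. The 19S particle binds ubiquitin-tagged proteins, removes the ubiquitin and threads the chain into the core with its ring of ATPases. The genes are known to be switched on together when proteasome capacity falls short, through the transcription factor NRF1 (gene Nfe2l1), which binds antioxidant response elements in their promoters together with small MAF proteins. In the β cell, which makes large amounts of proinsulin, the proteasome clears proteins that fail to fold in the endoplasmic reticulum.

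RefSeq promoter sequences (assembly GRCm38.p6, from 250 bases before to 50 after the start site) were found for 42 of the 50 members. They were searched on both strands for the antioxidant response element core TGACNNNGC, for CCAAT and for GGGCGG, with overlaps between motifs not removed. A gene was counted if any of its promoter sequences held the motif. TGACNNNGC was present in 6 of the 42 members (14.3%) and in 14.0% of all 27025 genes with promoter sequences. The 6 were Psmb5, Psmb6, Psmc6, Psmd12, Psmd9 and Psme4. CCAAT was present in 15 of 42 members (35.7%) and in 41.1% of all genes, and GGGCGG in 23 (54.8%) and in 38.2% of all genes. The stretches around the match in a pair of catalytic and a pair of 19S genes are shown because this is the element the known regulator binds. They read 5′ to 3′ on the gene's own strand, with the match in capitals; in Psmc6 and Psmd12 the match lies on the opposite strand and its reverse complement is seen.
Psmb5, chr14:54617999-54618077, minus strand: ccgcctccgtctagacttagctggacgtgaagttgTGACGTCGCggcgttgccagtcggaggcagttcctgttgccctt
Psmb6, chr11:70525313-70525356, plus strand: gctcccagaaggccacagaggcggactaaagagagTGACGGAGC
Psmc6, chr14:45329574-45329640, plus strand: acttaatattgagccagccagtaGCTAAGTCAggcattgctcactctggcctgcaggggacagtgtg
Psmd12, chr11:107479278-107479324, plus strand: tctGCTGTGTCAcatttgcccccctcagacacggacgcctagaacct
The first base of the match lay at position -47 from the start site in Psmb5 and -9 in Psmb6, and at -227 in Psmc6 and -247 in Psmd12. A match describes the letters of the window and is no measured binding site. The share of members with the match was near that of all genes. Of the 6 genes, Psmb5, Psmb6, Psmc6 and Psmd12 rose with azoramide in both genotypes, Psmd9 in control islets alone, and Psme4 in neither (values below).

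The members lie on 16 chromosomes, with 10 of the 50 on chromosome 11 and 6 each on chromosomes 2 and 14. Psme1 (chr14:55578123-55581529) and Psme2 (chr14:55587441-55591113), which encode both subunits of the activator PA28, are 5911 bp apart. Psmb9 (chr17:34181987-34187764) and Psmb8 (chr17:34197721-34201454) are 9956 bp apart. Of the 50 genes, 48 had enough counts to be tested, with 19 (Psmc3ip) to 5173 (Psmd2) counts per library. The other 2 were Psma8, the core subunit of male germ cells, with 0 to 11 counts, and Psmb11, that of the thymus, with 0 to 3 counts. A count of 0 allows up to 0.176 CPM in the shallowest scaled library, a limit that covers counting error only.

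Azoramide went with more proteasome RNA in both genotypes. Of the 48 tested members, 40 rose in control islets, 0 fell and 8 did not pass the test (edgeR quasi-likelihood, adjusted p under 0.05 over all 15093 genes). Over all genes tested, 19.3% rose and 19.8% fell. In the libraries labelled knockout 39 members rose, 2 fell and 7 did not pass, where 20% of all genes rose and 19.8% fell. The median member was 1.53-fold higher in each genotype, a log2 difference of 0.62 in both, against medians of -0.020 and -0.0032 over all genes. Without Psmc3ip and Psme2b the counts were 39 higher of 46 in control islets, and 38 higher and 2 lower in the libraries labelled knockout. Without control DMSO library 2 and library 3 of the azoramide group labelled knockout, the counts were again 40 higher and 0 lower in control islets, and 39 higher and 2 lower in the libraries labelled knockout, with medians of 0.63 and 0.66 (log2). Both genotypes shared 37 of the risen members. Psmd9, Psmg4 and Psme2b passed in control islets alone, and Psmc3ip and Psmg3 in the libraries labelled knockout alone, with no tested difference between genotypes (below).

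The share of all counts that fell on the 50 members was 0.377% to 0.399% in the 5 DMSO libraries and 0.462% to 0.529% in the 6 azoramide libraries, with no overlap. Their summed level was 3515.5 to 3858.3 CPM with DMSO and 4860.5 to 5474.8 CPM with azoramide. The lowest azoramide value belonged to library 3 labelled knockout, which was the lowest of the 6 azoramide libraries for 36 of the 48 tested members. Every azoramide library lay above every DMSO library for 34 of the 48 members, and for 17.5% of all genes tested. All 14 core subunits and 15 of 17 19S subunits were among these 34. Psme4 alone lay below throughout. In bulk islets, more RNA per cell and more cells of a type that holds much of it cannot be told apart.

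**Figure D1:**
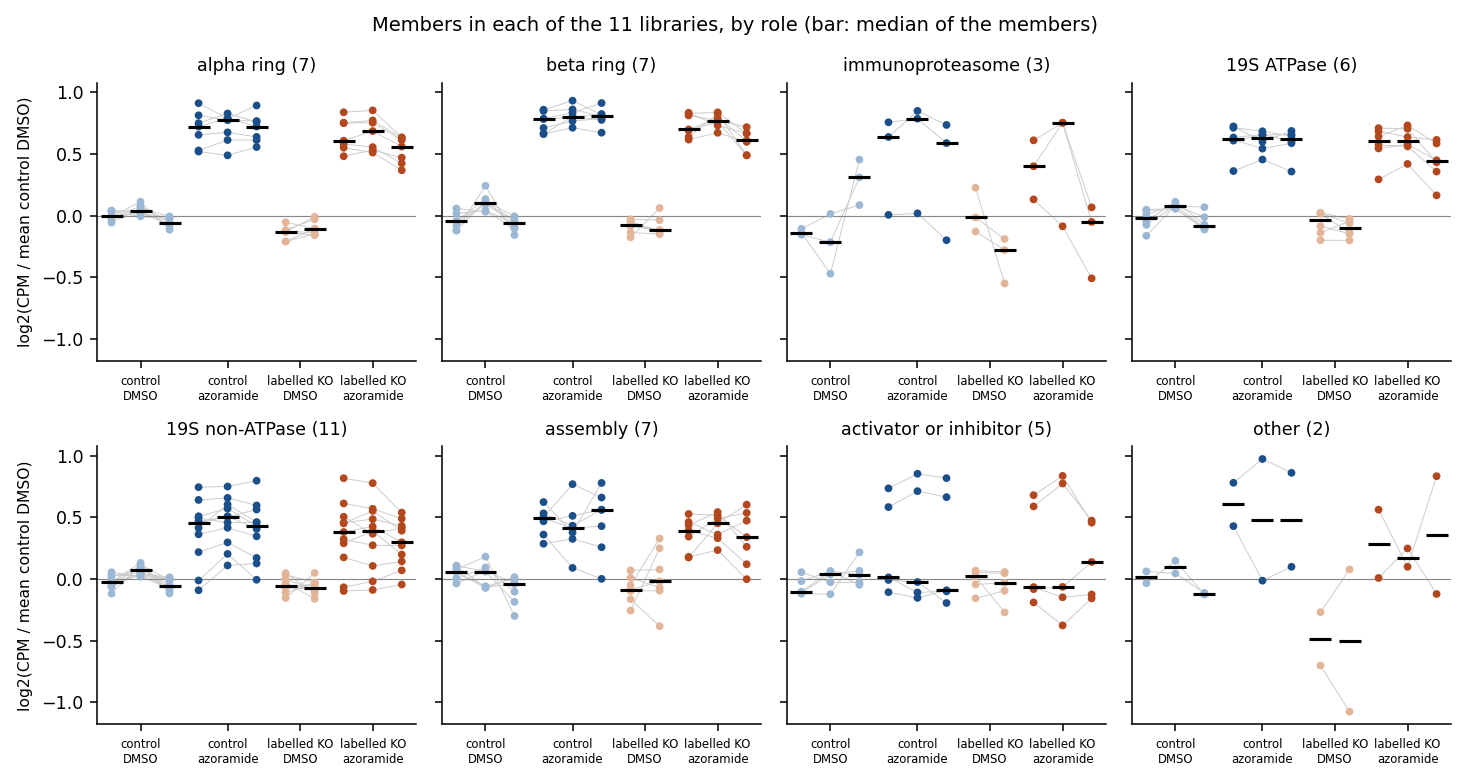
Level of each member in each of the 11 libraries by role, as log2 of its CPM over the mean of control DMSO (y axis); dots are members, grey lines join a member's libraries within a group and black bars are medians. The alpha, beta and ATPase members sit above 0 in every azoramide library, whereas the 19S non-ATPase subunits and the activators spread from below 0 to about the height of the core.

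The 20S core rose as a whole. All 7 alpha and all 7 beta subunits passed in both genotypes, with median log2 differences of 0.75 and 0.80 in control islets and 0.70 and 0.80 in the libraries labelled knockout. The 14 core subunits spanned 0.52 (Psma1) to 0.87 (Psmb3) in control islets and 0.62 (Psma6) to 0.89 (Psmb7) in the libraries labelled knockout. All 14 were called in each of the 19 alternative analyses, where their smallest difference was 0.17 in both genotypes and their largest 0.94 in control islets and 0.93 in the libraries labelled knockout.

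Psma2, an alpha subunit on chromosome 13, had the smallest p of its ring. It measured 107, 105 and 99.6 CPM in control DMSO and 183, 178 and 177 CPM in control azoramide. The knockout-labelled islets measured 95.4 and 94.3 CPM with DMSO and 175, 177 and 161 CPM with azoramide. The azoramide libraries were all far above the DMSO libraries, with log2 differences of 0.79 (SE 0.058, edgeR adjusted p = 2.25e-08) and 0.85 (SE 0.066, adjusted p = 9.1e-08). Psma6, the alpha subunit with the largest p, measured 71.1, 71.0 and 65.3 CPM in control DMSO against 99.7, 106 and 106 CPM with azoramide. Its libraries labelled knockout measured 63.1 and 61.9 CPM with DMSO and 101, 98.6 and 89.3 CPM with azoramide, and again the treatments did not overlap. Its log2 differences were 0.59 (SE 0.063, edgeR adjusted p = 1.68e-06) and 0.62 (SE 0.071, adjusted p = 3.8e-06).

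Psmb1, a beta subunit without catalytic activity, had the smallest p of all members. It measured 112, 114 and 106 CPM in control DMSO and 199, 200.4 and 193 CPM in control azoramide. Under the knockout label the values were 106 and 102 CPM with DMSO and 194, 188 and 181 CPM with azoramide. These sets stood well apart, with log2 differences of 0.84 (SE 0.056, edgeR adjusted p = 9.04e-09) and 0.86 (SE 0.064, adjusted p = 7.51e-08).

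The catalytic subunits of the standard core rose alike. Psmb5, which carries the chymotrypsin-like site, measured 52.2, 67.1 and 50.9 CPM in control DMSO and 97.7, 98.6 and 100.5 CPM in control azoramide. It measured 50.2 and 59.2 CPM with DMSO and 87.0, 90.4 and 85.9 CPM with azoramide in the libraries labelled knockout. Control DMSO library 2 was its highest DMSO library and still lay below every azoramide library. The log2 differences were 0.80 (SE 0.090, edgeR adjusted p = 6.01e-06) and 0.68 (SE 0.10, adjusted p = 8.47e-05). Psmb5 had the largest p of the beta ring.

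Psmb6, with the caspase-like site, measured 83.3, 91.5 and 83.0 CPM in control DMSO and 141, 146 and 148 CPM in control azoramide. Its libraries labelled knockout measured 83.5 and 77.9 CPM with DMSO and 139, 146 and 121 CPM with azoramide. The treatments did not overlap, and library 3 labelled knockout was the lowest with azoramide. The log2 differences were 0.76 (SE 0.070) and 0.74 (SE 0.079), with edgeR adjusted p = 3.57e-07 and 2.13e-06. Psmb7, with the trypsin-like site, measured 83.5, 82.0 and 75.1 CPM in control DMSO and 138, 143 and 151 CPM in control azoramide. With the knockout label it measured 73.0 and 72.3 CPM with DMSO and 143, 133 and 127 CPM with azoramide. Here too the gap was wide, with log2 differences of 0.85 (SE 0.062) and 0.89 (SE 0.071) and edgeR adjusted p = 2.32e-08 and 1.19e-07. Up to 11.8% of the exonic bases of Psmb7 overlap Nek6 on the opposite strand, and the strand setting of the counting is not given.

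The immunoproteasome subunits, which interferon induces in place of the standard catalytic subunits, did not move as 1 group. Psmb10, the counterpart of Psmb7, measured 17.8, 19.4 and 20.4 CPM in control DMSO and 32.4, 33.1 and 28.8 CPM in control azoramide. It measured 18.99 and 16.8 CPM with DMSO and 25.3, 32.4 and 20.1 CPM with azoramide in the libraries labelled knockout. Library 3 labelled knockout fell inside the DMSO range, and the other azoramide libraries were above it. The log2 differences were 0.71 (SE 0.13, edgeR adjusted p = 0.000665) and 0.53 (SE 0.15, adjusted p = 0.0116). In the libraries labelled knockout the call was lost without azoramide library 2 (0.34, adjusted p = 0.0516) and without DMSO library 2 (0.45, adjusted p = 0.122).

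Psmb8, the counterpart of Psmb5, measured 18.6, 17.9 and 25.7 CPM in control DMSO and 32.3, 37.4 and 34.6 CPM in control azoramide. Under the knockout label it measured 18.99 and 17.1 CPM with DMSO and 31.7, 35.0 and 20.04 CPM with azoramide. Library 3 labelled knockout was again within the DMSO range. The log2 differences were 0.75 (SE 0.20, edgeR adjusted p = 0.0144) and 0.68 (SE 0.23, adjusted p = 0.0388). The call in control islets was lost without control DMSO library 1 (0.68, adjusted p = 0.0558) or 2 (0.65, adjusted p = 0.0657). The call in the libraries labelled knockout was lost when any of 8 single libraries was left out. Those were azoramide libraries 1 (0.61) and 2 (0.52) and DMSO libraries 1 (0.76) and 2 (0.61) of that genotype, and control azoramide libraries 2 and 3 and control DMSO libraries 1 and 2 (0.68 in each), with adjusted p of 0.0502 to 0.202.

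Psmb9, the counterpart of Psmb6, was the least abundant of the 3 and did not pass in either genotype. It measured 5.73, 4.56 and 8.65 CPM in control DMSO and 6.34, 6.40 and 5.50 CPM in control azoramide. It measured 7.39 and 4.31 CPM with DMSO and 6.92, 5.95 and 4.44 CPM with azoramide in the libraries labelled knockout. The treatments overlapped fully, and the log2 differences of -0.051 (SE 0.25, edgeR adjusted p = 0.893) and -0.015 (SE 0.28, adjusted p = 0.972) had wide errors. Its sign turned without control DMSO library 3 (0.24) and without DMSO library 1 labelled knockout (0.42). Psmb9 shares 212 exonic bases with Tap1 on the opposite strand, so part of its 78 to 156 counts per library may belong to Tap1.

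**Figure D2:**
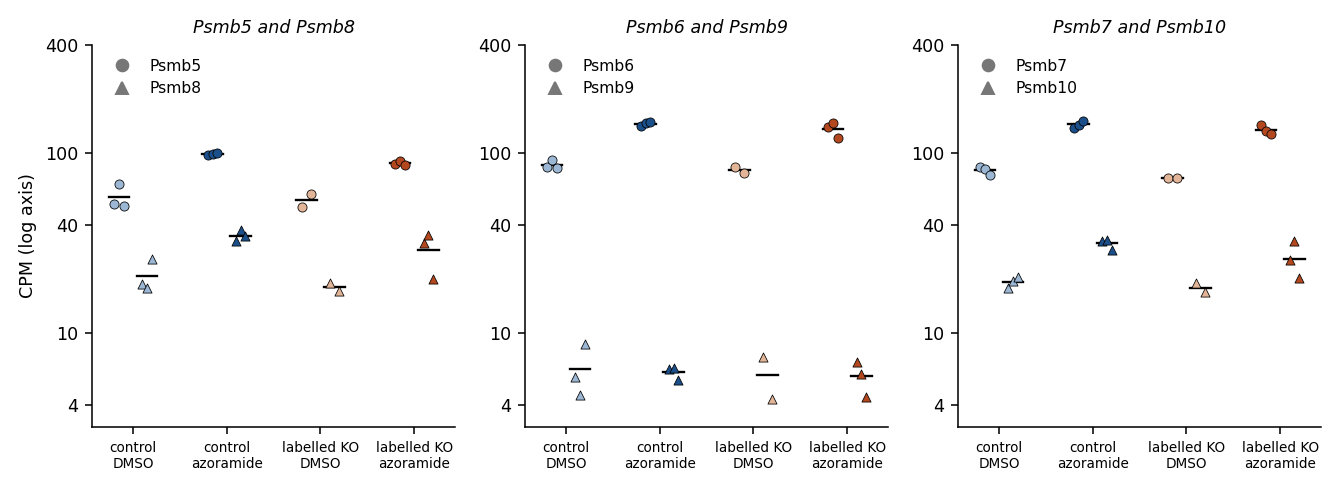
CPM (log axis) of the standard catalytic subunits (circles) and their immunoproteasome counterparts (triangles) in the 11 libraries by group, with a black bar at each group mean. Psmb5, Psmb6 and Psmb7 separate by treatment in both genotypes, Psmb8 and Psmb10 do so except in 1 azoramide library labelled knockout, and Psmb9 does not.

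Relative to their standard partners, the immunoproteasome subunits did not gain. On a per-length scale (TPM, counts per base of exon scaled to the same total in each library), Psmb8 made up 6.62% to 11.9% of Psmb8 plus Psmb5 with DMSO and 5.84% to 9.33% with azoramide. For Psmb10 and Psmb7 the share was 30.0% to 35.2% against 24.0% to 32.8%, and for Psmb9 and Psmb6 it was 2.48% to 5.06% against 1.85% to 2.49%. These ranges overlapped in all 3 pairs, in the last one barely.

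The 19S particle rose less than the core. Of its 17 subunits 15 passed in each genotype, with median log2 differences of 0.50 and 0.52, against 0.77 for the core in both. All 6 ATPases rose, with medians of 0.64 in both genotypes. In control islets the smallest p belonged to Psmc2 and the largest to Psmc5. Psmc2 measured 125, 139 and 123 CPM in control DMSO and 211, 207 and 202 CPM in control azoramide. The knockout-labelled islets measured 131 and 127 CPM with DMSO and 207, 200.7 and 197 CPM with azoramide. The treatments did not overlap, and the log2 differences were 0.68 (SE 0.060, edgeR adjusted p = 2.00e-07) and 0.65 (SE 0.068, adjusted p = 1.81e-06).

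Psmc5 rose least among the ATPases. It measured 112, 113 and 101 CPM in control DMSO and 139.5, 149 and 139 CPM in control azoramide. With the knockout label it measured 98.6 and 105 CPM with DMSO and 133, 145 and 122 CPM with azoramide. The treatments stood apart by a smaller gap, with log2 differences of 0.39 (SE 0.069, edgeR adjusted p = 0.000242) and 0.39 (SE 0.078, adjusted p = 0.000753). With a correction for exonic length and GC content these were 0.13 (adjusted p = 0.152) and 0.11 (adjusted p = 0.269). The other ATPases lay between 0.58 and 0.67 in control islets and between 0.56 and 0.85 in the libraries labelled knockout, where Psmc6 was highest.

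Among the 11 other 19S subunits 9 rose in each genotype, and the differences ran from 0.051 to 0.76 in control islets. Psmd8, a lid subunit, had the smallest p. It measured 79.5, 84.0 and 81.7 CPM in control DMSO and 137, 137 and 142 CPM in control azoramide. It measured 78.6 and 79.2 CPM with DMSO and 144, 140 and 119 CPM with azoramide in the libraries labelled knockout. The treatments were far apart, with log2 differences of 0.76 (SE 0.067, edgeR adjusted p = 1.76e-07) and 0.77 (SE 0.076, adjusted p = 8.92e-07). Psmd14, the deubiquitinase of the lid, rose by 0.63 (edgeR adjusted p = 2.07e-06) and 0.65 (adjusted p = 6.14e-06) on the log2 scale. The ubiquitin receptor Psmd4 rose by 0.50 and 0.40, and the large scaffold subunits Psmd1 (0.37 and 0.33) and Psmd2 (0.23 and 0.22) rose less. The call of Psmd2 in the libraries labelled knockout (adjusted p = 0.0149) was lost without azoramide library 1 (0.20), DMSO library 1 (0.22) or DMSO library 2 (0.21) of that genotype.

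Psmd11, a lid subunit that limits 26S assembly in other cells, and Psmd3, another lid subunit, did not pass. Psmd11 measured 86.4, 96.3 and 81.0 CPM in control DMSO and 82.5, 94.9 and 95.9 CPM in control azoramide. Under the knockout label it measured 79.0 and 90.9 CPM with DMSO and 83.9, 86.7 and 92.3 CPM with azoramide. The treatments overlapped throughout, with log2 differences of 0.051 (SE 0.078, edgeR adjusted p = 0.644) and 0.044 (SE 0.087, adjusted p = 0.724). Psmd3 had log2 differences of 0.065 (edgeR adjusted p = 0.456) and -0.080 (adjusted p = 0.403). With the correction for length and GC content Psmd3 rose, by 0.29 (adjusted p = 0.00108) and 0.19 (adjusted p = 0.0408), whereas Psmd11 measured -0.086 and -0.17 and still did not pass.

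The ratio of the mean TPM of the 17 19S subunits to that of the 14 core subunits was 0.87 to 0.93 in the DMSO libraries and 0.73 to 0.76 in the azoramide libraries, with no overlap between them. This ratio compares RNA levels per length and does not measure assembled particles. On the same per-length scale the 19S mean was 95.461 to 99.533 TPM with DMSO and 98.016 to 115.14 TPM with azoramide, which overlapped. The core mean was 106.01 to 114.03 TPM with DMSO and 128.53 to 152.91 TPM with azoramide, without overlap. The rise of the 19S particle seen in CPM was thus not clear of the DMSO range in mean TPM.

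**Figure D3:**
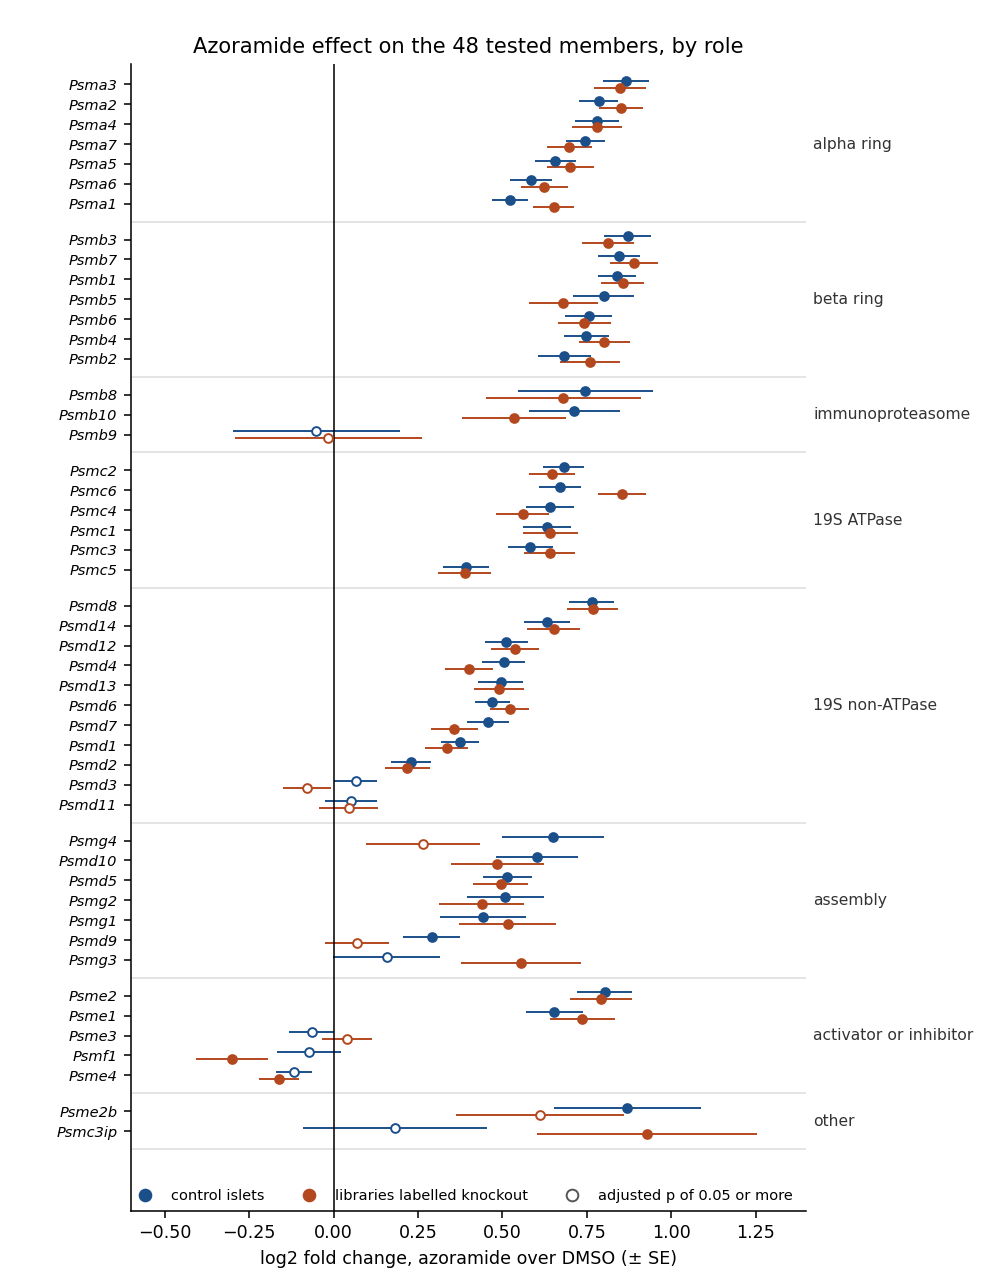
Log2 fold change of azoramide over DMSO with its SE for the 48 tested members by role (x axis); blue is control islets, orange the libraries labelled knockout, and open circles did not reach an adjusted p under 0.05. The core subunits lie between 0.52 and 0.89 in both genotypes, Psmd3, Psmd11, Psme3 and Psmb9 are open in both, and Psme4 and Psmf1 lie below 0.

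The assembly factors, chaperones that put the rings and the 19S base together and leave the finished particle, are present at low levels. Of 7, 6 rose in control islets (median 0.51) and 5 in the libraries labelled knockout (median 0.48). With a correction for exonic length and GC content 2 of 7 passed in each genotype (medians 0.19 and 0.23), and Psmd10 went from 0.60 to 0.064 and from 0.48 to -0.12. Psmd5, a chaperone of the 19S base, had the smallest p. It measured 39.2, 36.3 and 37.9 CPM in control DMSO and 52.3, 53.9 and 55.8 CPM in control azoramide. It measured 38.0 and 36.0 CPM with DMSO and 54.5, 54.1 and 47.8 CPM with azoramide in the libraries labelled knockout. Its treatments did not overlap, with log2 differences of 0.51 (SE 0.072, edgeR adjusted p = 2.8e-05) and 0.49 (SE 0.081, adjusted p = 0.000129).

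Psmg3, a chaperone of the alpha ring, had the largest p in control islets. It measured 6.51, 6.94 and 6.05 CPM in control DMSO and 8.34, 6.92 and 6.50 CPM in control azoramide, which overlapped, with a log2 difference of 0.16 (SE 0.16, edgeR adjusted p = 0.466). The knockout-labelled islets measured 5.80 and 4.98 CPM with DMSO and 8.53, 8.17 and 7.06 CPM with azoramide, a rise of 0.56 (SE 0.18, adjusted p = 0.0188). That call was lost without azoramide library 1 (0.50, adjusted p = 0.0628) or DMSO library 2 (0.45, adjusted p = 0.172) of that genotype. Other calls in this group also rested on single libraries. Psmg1 in control islets (0.44, adjusted p = 0.0109) was lost without control DMSO library 3 (0.31, adjusted p = 0.0586). In the libraries labelled knockout, Psmg1 (0.52) was lost without DMSO library 1 (0.51) or 2 (0.52), and Psmg2 (0.44) and Psmd10 (0.48) without DMSO library 1 (0.21 and 0.45). Psmg4 was 0.65 (adjusted p = 0.00243) in control islets and 0.27 (adjusted p = 0.229) in the libraries labelled knockout, and Psmd9 0.29 (adjusted p = 0.0113) and 0.068 (adjusted p = 0.606).

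The activators did not move together. Psme1 and Psme2 encode both subunits of PA28αβ, the interferon-inducible cap of the core, and both rose. Psme1 measured 60.6, 68.1 and 66.7 CPM in control DMSO and 97.6, 107 and 103 CPM in control azoramide. It measured 66.1 and 54.0 CPM with DMSO and 97.9, 111 and 90.4 CPM with azoramide in the libraries labelled knockout. Azoramide libraries were all above DMSO libraries, with log2 differences of 0.65 (SE 0.085, edgeR adjusted p = 1.75e-05) and 0.74 (SE 0.096, adjusted p = 1.98e-05). Psme2 measured 60.7, 67.3 and 68.6 CPM in control DMSO and 109, 118 and 115 CPM in control azoramide. Its libraries labelled knockout measured 58.8 and 61.3 CPM with DMSO and 105, 117 and 89.9 CPM with azoramide. The treatments stood apart for Psme2 as well, with log2 differences of 0.80 (SE 0.081, edgeR adjusted p = 1.03e-06) and 0.79 (SE 0.092, adjusted p = 5.4e-06).

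Psme3, the nuclear PA28γ that interferon does not induce, had log2 differences of -0.065 (SE 0.066, edgeR adjusted p = 0.477) and 0.038 (SE 0.074, adjusted p = 0.721). Psme4, the activator PA200, ranged from 189.8 to 201.3 CPM in the DMSO libraries and from 174 to 185 CPM with azoramide. All its azoramide libraries were below all its DMSO libraries, by a log2 difference of -0.12 in control islets (SE 0.054, edgeR adjusted p = 0.0995) and of -0.16 in the libraries labelled knockout (SE 0.060, adjusted p = 0.0409). Psmf1, the inhibitor PI31, measured 37.4, 37.3 and 47.2 CPM in control DMSO and 40.4, 39.9 and 35.5 CPM in control azoramide, which overlapped, with a log2 difference of -0.073 (SE 0.096, edgeR adjusted p = 0.585). In the libraries labelled knockout Psmf1 measured 42.6 and 42.3 CPM with DMSO and 35.6, 31.3 and 36.4 CPM with azoramide, and fell by 0.30 (SE 0.11, adjusted p = 0.0317) on the log2 scale. Both calls lay near the threshold. With any 1 library left out Psme4 measured -0.14 to -0.19. It lost its call with DESeq2 size factors (adjusted p = 0.0511), without the low-count filter (adjusted p = 0.0925) and without azoramide library 2 (-0.14) or 3 (-0.16), DMSO library 1 (-0.16) or 2 (-0.17), or any of control azoramide 1, control azoramide 3 and control DMSO 1 (-0.16 in each). Psmf1 lost its call without azoramide library 2 (-0.24) or DMSO library 1 (-0.30) or 2 (-0.31), and with the correction for length and GC content (-0.17, adjusted p = 0.258).

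Outside the complex, Psmc3ip measured 1.78 to 2.00 CPM in control DMSO, 1.90 to 2.58 in control azoramide, 0.91 to 1.18 in DMSO and 1.76 to 2.28 in azoramide libraries labelled knockout. Its log2 differences were 0.18 (SE 0.27, edgeR adjusted p = 0.636) and 0.93 (SE 0.32, adjusted p = 0.0304). The latter call was lost without azoramide library 1 (0.95) or 2 (0.82) or DMSO library 1 (1.12) or 2 (0.75). Psmc3ip shares 21.2% of its exonic bases with Mlx on the opposite strand, which had 12730 counts over all libraries against 372 for Psmc3ip. Psme2b was 0.87 (edgeR adjusted p = 0.00419) in control islets and 0.61 (adjusted p = 0.0605) in the libraries labelled knockout. How far its reads were told apart from those of Psme2 is not known. Without azoramide library 2 labelled knockout the latter difference of Psme2b was 0.79 (adjusted p = 0.0223).

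Levels between members were compared per length only. In control DMSO the 14 core subunits ranged from 63.2 TPM (Psmb7) to 171 TPM (Psmb4), with a median of 104 TPM. The 17 19S subunits ranged from 37.1 TPM (Psmd11) to 210 TPM (Psmc5), with a median of 84.7 TPM. Psmc5 at 210 ± 9.03 TPM and Psmc1 at 198 ± 8.75 TPM were the highest members and lay within 2 SD of each other, as did Psmb4 at 171 ± 8.90 and Psmb5 at 170 ± 23.5 TPM (SD, n = 3 each). The assembly factors lay below all of them, at 6.06 (Psmg3) to 30.3 TPM (Psmg4), and the immunoproteasome subunits at 4.68 (Psmb9), 16.6 (Psmb8) and 30.4 TPM (Psmb10). With the length of the longest transcript in place of all exons the medians were 139 TPM for the core and 106 TPM for the 19S particle. The order of the highest members changed as well, with Psmb4 first at 224 TPM, Psmc1 at 192 TPM, Psmb6 at 191 TPM and Psmc5 at 167 TPM.

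Exonic length went with the azoramide difference over all genes. When the genes tested were split into 5 classes of equal size by length, the shortest class had median log2 differences of 0.28 in control islets and 0.29 in the libraries labelled knockout, and the longest class -0.20 and -0.16. The proteasome genes are short, with a median exonic length of 2804 bp against 4271 bp, and 20 of the 48 fell in the shortest class and 15 in the next. The members of these classes had medians of 0.65 and 0.58 in control islets and 0.63 and 0.65 in the libraries labelled knockout, above the 0.28 and 0.073, and the 0.29 and 0.091, of all genes in these classes. With the correction for length and GC content, an offset per gene and library, 35 members were higher and 0 lower in control islets (median 0.43), and 34 higher and 1 lower in the libraries labelled knockout (median 0.41). All 14 core subunits were still called in both, with medians of 0.54 and 0.50. Of the 19S subunits 15 and 14 were called (medians 0.34 and 0.38), and of the assembly factors 2 in each genotype, Psmd5 and Psmd9. For Psmd9 the exonic length used was 7248 bp, against 2634 bp for its longest transcript. Of its exonic bases 25.5% overlap Gm26745 on the opposite strand. The part of length or RNA quality in the azoramide differences was not tested further.

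Other calls depended on the scaling. With plain library totals, which lower the median of all genes, Psmd2 lost its calls (0.063 and 0.062), as did Psmb8 (0.58 and 0.53), and in the libraries labelled knockout Psmb10 (0.38), Psmd10 (0.33), Psmg2 (0.28), Psmg3 (0.40) and Psmc3ip (0.77). Psmd9 (0.12) and Psmg1 (0.28) lost theirs in control islets. Psme3 (-0.23) and Psme4 (-0.29) then passed as lower in control islets, and Psmd3 in the libraries labelled knockout (-0.24). Psme2b lost its call in control islets with the correction for length and GC content (0.47, adjusted p = 0.161).

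**Figure D4:**
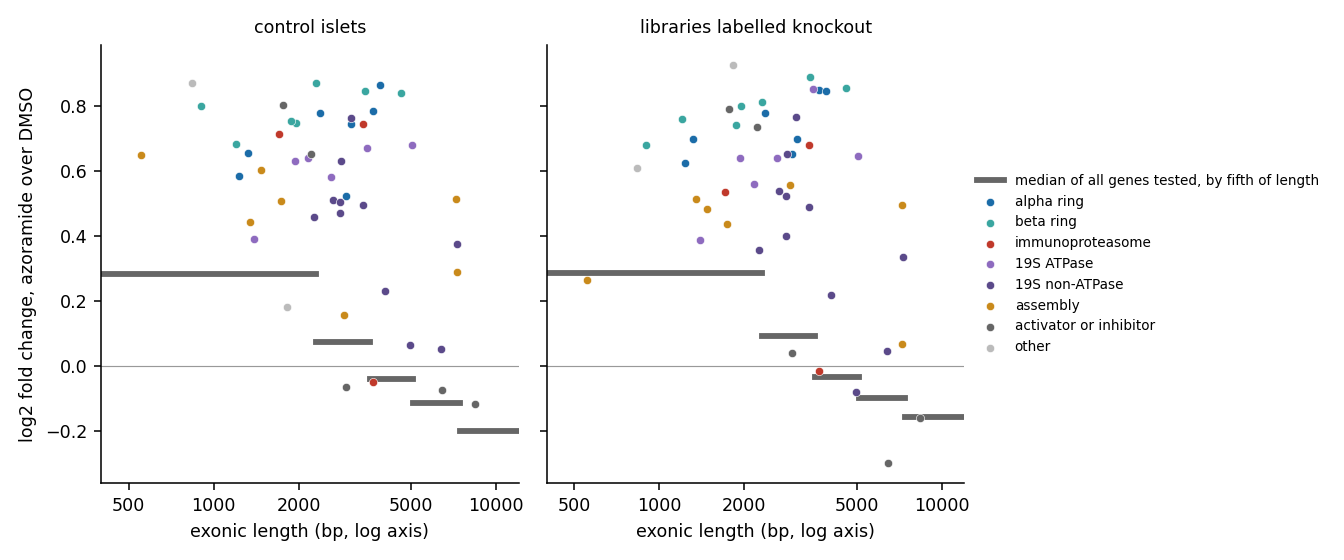
Log2 fold change of azoramide over DMSO (y axis) against exonic length in bp (x axis, log) for the 48 tested members, coloured by role, in each genotype; grey bars are the medians of all tested genes in each of 5 length classes. The core subunits lie above the grey bars at every length, whereas Psme4, Psmf1, Psmd11 and Psmd9, the longest members, lie lower with the exception of Psmd5 and Psmd1.

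No single member differed detectably between the genotypes. Between libraries labelled knockout and control, 0 members passed with DMSO and 0 with azoramide, as did 0.0% of all genes in each. At an unadjusted p under 0.05 there were 4 and 5 members, and 531 and 754 of all genes. DESeq2 also called 0 members in either comparison. Without both libraries that stand apart 0 members passed in either, whereas 49 of all genes were higher and 35 lower in the azoramide comparison, and 1 higher and 1 lower with DMSO. The medians were -0.074 with DMSO and -0.080 with azoramide, against -0.0034 and 0.00066 over all genes. A negative difference was seen in 42 and 45 of 48 members, against 7698 and 7514 of all 15093 genes. The spread of the member median between libraries of a group was 0.050 (log2), and this shared small shift was not tested as a set. The smallest p with DMSO belonged to Psmc6 at -0.20 (SE 0.071), Psmc3ip at -0.88 (SE 0.32) and Psma1 at -0.16 (SE 0.060), each with an edgeR adjusted p of 0.999. With azoramide it belonged to Psmd7 at -0.16 (SE 0.061, edgeR adjusted p = 0.958), Psma5 at -0.13 (SE 0.060, adjusted p = 0.959) and Psmd3 at -0.14 (SE 0.064, adjusted p = 0.959). Library 3 labelled knockout, the lowest azoramide library for most members, is part of the azoramide comparison.

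The response to azoramide was also tested for a difference between genotypes. In this interaction 0 of 48 members passed in edgeR, 0 in DESeq2, and 0 reached an unadjusted p under 0.05. Of all genes 0.0% passed, and 563 reached an unadjusted p under 0.05. The median interaction of the members was -0.0057 on the log2 scale. The smallest p belonged to Psmc6, at 0.18 (SE 0.094, unadjusted p = 0.069, edgeR adjusted p = 0.999). Psmf1, Psmg3 and Psmg4, which passed in 1 genotype only, had interactions of -0.23, 0.40 and -0.38 (edgeR adjusted p = 0.999 each).

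As background to the subunits, 4 lists of related genes were read from the same fit. Of 14 tested genes for the transcription of proteasome genes, 3 rose and 6 fell in control islets, with a median of -0.18, and 3 rose and 4 fell in the libraries labelled knockout, with a median of -0.11. Beside this and the lists that follow stand the shares over all genes, 19.3% higher and 19.8% lower in control islets and 20% and 19.8% in the libraries labelled knockout. Nfe2l1, which encodes NRF1, measured 388, 405 and 383 CPM in control DMSO and 331, 346 and 312 CPM in control azoramide. With the knockout label it measured 406 and 428 CPM with DMSO and 327, 324 and 358 CPM with azoramide. The RNA was lower in every azoramide library, by log2 differences of -0.25 (SE 0.060, edgeR adjusted p = 0.00303) and -0.31 (SE 0.066, adjusted p = 0.00122), but measured -0.021 and -0.055, which did not pass, with that correction. NRF1 is known to be controlled after translation, by NGLY1, which removes its sugars, and DDI2, which cuts it.

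Ngly1 rose by 0.56 (SE 0.078, edgeR adjusted p = 2.43e-05) and 0.54 (SE 0.088, adjusted p = 0.000124) on the log2 scale. Ddi2 fell by 0.36 (adjusted p = 0.000296) and 0.48 (adjusted p = 5.23e-05), of which the first was lost with the correction (-0.15, adjusted p = 0.0989). The related factor Nfe2l2, known for oxidative stress, rose by 0.33 (adjusted p = 0.000292) and 0.28 (adjusted p = 0.0031), the latter lost without DMSO library 2 labelled knockout (0.25, adjusted p = 0.0537) and with plain library totals (0.12). Among its small MAF partners, Maff rose by 0.44 (adjusted p = 0.0183) and 1.13 (adjusted p = 5.41e-05). Mafg and Mafk, named here after their values were seen, did not rise. Mafg, at a mean of 113 CPM in control DMSO against 21.5 CPM for Maff, fell by 0.25 (adjusted p = 0.031) and 0.28 (adjusted p = 0.0289). Mafk was 0.0040 and -0.012, which did not pass. In control islets the call of Maff was lost without azoramide library 2 (0.31) or DMSO library 3 (0.32), and with plain library totals (0.28).

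Of 21 tested partners and shuttles, 8 rose and 3 fell in control islets (median 0.10), and 9 rose and 4 fell in the libraries labelled knockout (median 0.094), against 19.3% and 20% of all genes that rose. Genes of the complex itself did not all move alike. Pomp, the chaperone that matures the beta rings, measured 50.7 to 59.0 CPM in control DMSO and 92.9 to 105 CPM in control azoramide, and 48.8 to 51.5 and 86.2 to 101 CPM in the libraries labelled knockout. It rose by 0.86 (SE 0.075, edgeR adjusted p = 1.76e-07) and 0.91 (SE 0.086, adjusted p = 5.42e-07) with no overlap. Sem1, a small 19S subunit whose name the rule does not take, rose by 0.79 (adjusted p = 1.47e-07) and 0.78 (adjusted p = 8.8e-07). Adrm1, the ubiquitin receptor RPN13 of the 19S particle, named here after its values were seen, was -0.072 (adjusted p = 0.327) in control islets and fell by 0.19 (adjusted p = 0.022) in the libraries labelled knockout. Every azoramide library lay below every DMSO library for Adrm1, but barely. Its highest azoramide value was 81.44 CPM and its lowest DMSO value 81.49 CPM, both in control islets. The call of Adrm1 was not recomputed under the alternatives. Txnl1, a thioredoxin bound to the 19S particle, rose by 0.49 and 0.51. Ubqln2, a shuttle that brings ubiquitinated proteins to the proteasome, fell by 0.38 (adjusted p = 0.000166) and 0.59 (adjusted p = 6.77e-06).

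Of 14 genes for ubiquitin and its activation, 5 rose and 2 fell in control islets (median 0.10), and 6 rose and 3 fell in the libraries labelled knockout (median 0.20), where 19.3% and 20% of all genes rose. Rps27a, which encodes ubiquitin fused to a ribosomal protein, had the largest difference of the 14 and rose by 1.02 (edgeR adjusted p = 4.31e-09) and 1.07 (adjusted p = 3.71e-08). The polyubiquitin gene Ubb rose by 0.33 and 0.27, and Ube2d3, a conjugating enzyme, by 0.42 and 0.50. The call of Ubb in the libraries labelled knockout was lost with plain library totals (0.11) and with the correction for length and GC content (0.13). Of 18 genes for antigen processing and interferon, 4 rose and 1 fell in control islets (median 0.26), and 5 rose and 2 fell in the libraries labelled knockout (median 0.28), near the shares of all genes. Erap1, which trims peptides for presentation, rose by 0.48 in both (adjusted p = 1.86e-05 and 6.09e-05). The repressor Irf2 fell by 0.35 (adjusted p = 0.0174) and 0.51 (adjusted p = 0.00271). The first of these was lost when control azoramide 2, control azoramide 3 or control DMSO 3 was left out (-0.31 in each) and with that correction (-0.25), and the second without DMSO library 1 labelled knockout (-0.41).

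Tap2, part of the peptide transporter, was -0.22 (edgeR adjusted p = 0.136) in control islets and fell by 0.51 (adjusted p = 0.00278) in the libraries labelled knockout. The latter call of Tap2 was lost with the correction for length and GC content (-0.27, adjusted p = 0.118). The control value passed without both libraries that stand apart (-0.26, adjusted p = 0.0452) and with plain library totals (-0.38, adjusted p = 0.0169). Isg15 was 0.59 (adjusted p = 0.106) and 1.38 (adjusted p = 0.00304).

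**Figure D5:**
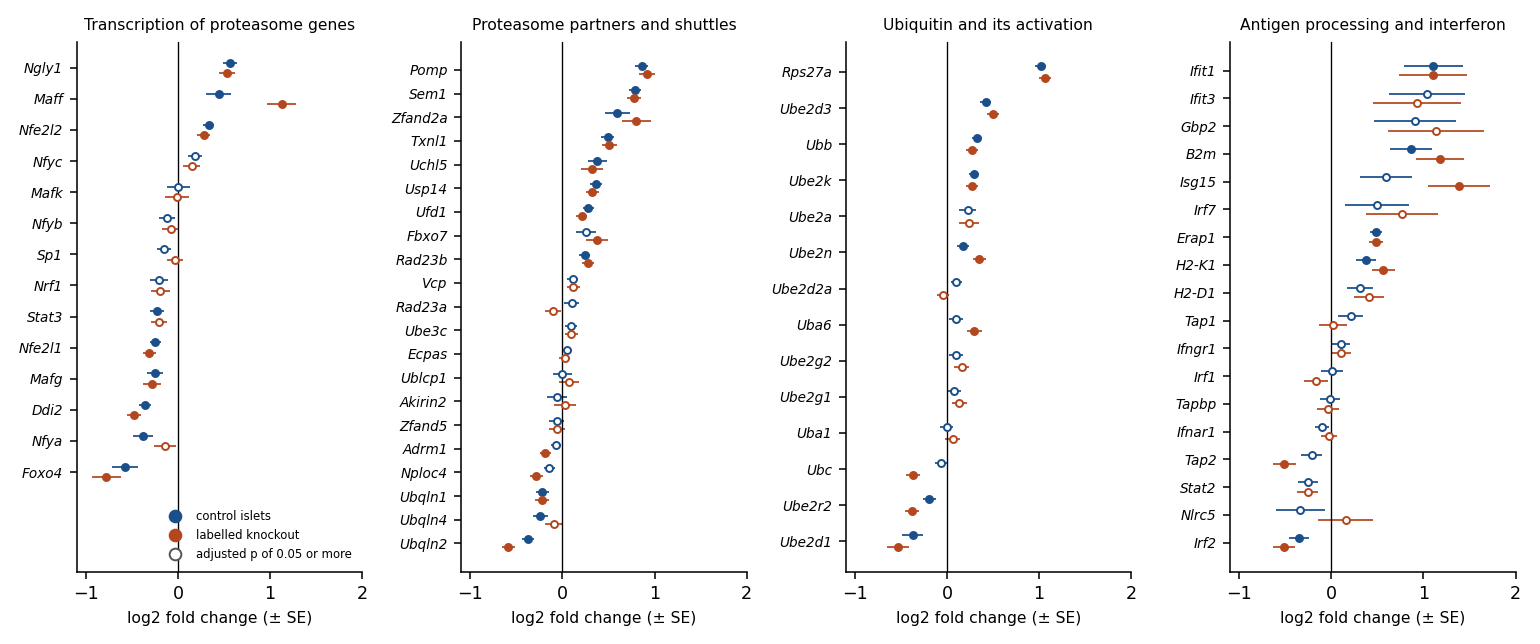
Log2 fold change of azoramide over DMSO with its SE (x axis) for the tested genes of the 4 lists, ordered by the value in control islets; blue is control islets, orange the libraries labelled knockout, open circles did not reach an adjusted p under 0.05. Rps27a, Pomp and Sem1 reach the differences of the core subunits, whereas Nfe2l1, Ddi2 and Ubqln2 lie below 0.

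Markers of other cells were read in the same libraries. The 10 macrophage markers summed to 49.0 to 63.5 CPM with DMSO and 68.0 to 129 CPM with azoramide, with no overlap, and 2 of 10 rose in control islets and 4 of 10 in the libraries labelled knockout, where 19.3% and 20% of all genes rose. The separation rested on Cd68, named here after its values were seen, at 11.1 to 19.6 CPM with DMSO and 26.8 to 42.4 CPM with azoramide. The other 9 summed to 31.1 to 43.9 CPM with DMSO and 35.6 to 86.9 CPM with azoramide, which overlapped. In control islets 8 of the 10 log2 differences were positive (median 0.20), as were 7274 of all 15093 genes. The 2 negative ones were Csf1r at -0.20 (edgeR adjusted p = 0.678) and Adgre1 at -0.42 (adjusted p = 0.421). In the libraries labelled knockout all 10 were positive (median 0.74), as were 7505 of all genes. None of the 10 was at 0 in any library. Library 3 labelled knockout, the azoramide library that was low in Psmb8 and Psmb10, had 69.5 macrophage CPM, against 129 and 101 in libraries 1 and 2 of its group, and their part in the immunoproteasome values was not tested. Of the 8 T and B cell markers Cd8a was at 0 in all 11 libraries and Cd3e, Cd3d and Ms4a1 in 10, and the list summed to at most 1.83 CPM. Endothelial markers were 251 to 267 CPM with DMSO and 192 to 242 CPM with azoramide. Stellate markers were 18.04 to 24.8 CPM with DMSO and 11.4 to 19.3 CPM with azoramide. Acinar markers varied from 328 to 3294 CPM and overlapped between treatments. Ductal markers were 942 to 1203 CPM with DMSO and 1157 to 1548 CPM with azoramide, which overlapped. Of the 4 ductal markers tested 1 rose in control islets and 0 in the libraries labelled knockout.

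The islet endocrine markers also moved with azoramide. Their summed level was 144680 to 157850 CPM with DMSO and 163990 to 219210 CPM with azoramide, with no overlap. Of the 6 genes 4 rose in control islets and 2 with the knockout label, with 1 lower in each. Over all genes 19.3% and 20% rose, and 19.8% fell in each genotype. Gcg, the glucagon gene of alpha cells, measured 13889 to 15961 CPM with DMSO and 22757 to 26867 CPM with azoramide. Iapp, the amylin gene of β cells, measured 19148 to 20923 CPM and 31299 to 36694 CPM. Ins1, an insulin gene, went the other way, from 30923 to 34499 CPM with DMSO to between 19150 and 25399 CPM with azoramide. The part of these shifts in the proteasome values was not tested.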

How the data were processed

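The deposited table holds unnormalized read counts for 32285 genes, 1 column per library, and its values fit that unit. STAR 2.7.2a, the build mm10 and DESeq2, the last without a role, are named per the submitters' processing notes. How reads were counted (tool, annotation, strand) is not given in the sources used here. How far reads of overlapping or near-identical genes were separated is therefore not known. Differential expression was computed with edgeR 4.0.16 in R 4.3.3 (quasi-likelihood test, robust, TMM scaling, low-count filter by group, 15093 genes left, 11 libraries in 1 fit of 4 groups). P-values were adjusted by Benjamini-Hochberg over all genes tested, with a threshold of 0.05. Where nothing shows that the pools are independent cultures, p-values measure the spread between these samples. No pair of libraries of the same group agreed within sampling noise, and pairs across groups were not compared. TPM used exon unions of GENCODE M21 (GRCm38, the assembly of mm10). Coordinates are 1-based. On simulated counts 84% of genes changed 1.5-fold were recovered for azoramide in control islets (14850 genes run) and 72% in libraries labelled knockout (14822). At 1.25-fold these shares were 30% and 16%. Between genotypes 68% with DMSO and 60% with azoramide were recovered at 1.5-fold, and 26% and 12% at 1.25-fold. All 50 members may be named; values per library are given for catalytic subunits, Psme1, Psme2 and the members of smallest and largest p per role; up to 4 genes per related list have the smallest p, beside Nfe2l1, Nfe2l2, Pomp and Sem1. Some genes of these lists are not reported here, and the lists' counts and medians leave them out. Members, lists, named genes and alternatives (DESeq2 1.42.0, other scalings, no filter, length and GC offset, compared groups only, replicate block, libraries left out) were chosen with earlier results of these data known.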

Additional observations from a re-analysis of the deposited data

How the results depend on the processing

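Apart from genes named after their values were seen, each azoramide value of a tested member or named list gene was recomputed under 19 alternatives. Of these values, with those of the genotype comparisons, 2513 kept direction and side of the threshold, 88 lost the call, 8 gained it and 29 changed sign. In control islets 31 of the 40 risen members, and in the libraries labelled knockout 29 of the 39, were called in every alternative. The cause was not tested. Plain library totals shift the median of all genes by -0.19 in control islets and -0.16 in the libraries labelled knockout. The member medians were then 0.45 and 0.46, with 36 members higher and 2 lower, and 32 higher and 3 lower. The length and GC offset gave medians of 0.43 and 0.41. In the libraries labelled knockout 1 member was lower with DESeq2 size factors, without the low-count filter, with the offset and with the replicate block. Leaving out 1 library, or both that stand apart, gave 39 to 40 members higher and 0 lower in control islets (median 0.60 to 0.63), and 33 to 39 higher and 0 to 2 lower in the libraries labelled knockout (median 0.57 to 0.66).

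Signs turned for 10 members, of which Psmd10 alone had passed in the comparison concerned. With plain library totals the control values were -0.11 for Psmd11, -0.10 for Psmd3 and -0.012 for Psmg3, and the labelled knockout values -0.11 for Psmd11, -0.12 for Psme3 and -0.087 for Psmd9. With the offset they were -0.086 for Psmd11, 0.067 for Psmf1, 0.040 for Psmb9 and -0.059 for Psmc3ip in control islets, and -0.17 for Psmd11, 0.19 for Psmd3, -0.049 for Psme3, -0.12 for Psmd10, -0.050 for Psmg4 and 0.11 for Psmb9 in the libraries labelled knockout. Leaving out 1 library gave, in control islets, -0.0040 (without DMSO 3) to 0.13 for Psmd11, -0.0088 (azoramide 2) to 0.11 for Psmd3, -0.13 to 0.048 (DMSO 3) for Psmf1 and -0.24 to 0.24 (DMSO 3) for Psmb9, which was 0.017 without azoramide 3. In the libraries labelled knockout it gave -0.053 (DMSO 1) to 0.15 for Psmd11, -0.035 (azoramide 3) to 0.075 for Psme3, and -0.36 to 0.42 (DMSO 1) for Psmb9, which was 0.14 without azoramide 3. Without both libraries that stand apart Psme3 was -0.035 and Psmb9 0.14. The medians per length moved to 139 TPM (core) and 106 TPM (19S) with the longest transcript.

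Replicate numbers are shared between groups, but same-numbered libraries did not deviate together in every pair (r of 0.062, 0.11 and -0.016 in control islets, 0.037 and -0.14 in libraries 1 and 2 labelled knockout). The deviations of the 2 DMSO libraries labelled knockout mirror each other, so the values of that genotype cannot show a pairing, and the labels do not say whether a number marks a shared pool. With the replicate block 40 members rose in control islets and 39 in the libraries labelled knockout, with 1 lower (Psme4 lost its call, -0.16, adjusted p = 0.0827). Psme3 was -0.035 and Psmb9 0.17 with the block.

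The group of 2 libraries relies on the spread of the other groups, and when 1 of them is left out the lone library is assumed to vary like the others.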
